A study of Mus musculus with 6 samples.

Results

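The 10 genes described here encode secreted signals of inflammation: the CC chemokines Ccl2, Ccl7, Ccl3 and Ccl4, the CXC chemokines Cxcl1, Cxcl2 and Cxcl10, the macrophage growth factor Csf1, and the cytokines Il1b and Tnf. They were chosen by symbol, and all 10 were found among the 24394 named genes of the deposited table. RNA sequencing was done on the submandibular salivary gland of wild type C57BL/6 mice, in 3 groups of 2 libraries: control glands (T0), glands 6 h after 5 Gy of ionizing radiation, and glands 24 h after 5 Gy. Whole gland RNA was used, so each value mixes epithelium, vessels, connective tissue and leukocytes. The sources used here give neither age, sex nor the number of animals. They do not say whether replicates are different mice, so the p-values below reflect only how far these samples differ, which may be technical.

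Chemokines are small proteins that guide leukocytes along gradients by binding receptors on their surface. The CC chemokines of this set act mainly on monocytes, macrophages and T cells, Cxcl1 and Cxcl2 act on neutrophils through the receptor Cxcr2, and Cxcl10 is an interferon-induced chemokine that attracts activated T cells and NK cells through Cxcr3. Csf1 keeps macrophages alive through the receptor Csf1r, Il1b and Tnf are early alarm cytokines, and many of these genes are known targets of the transcription factor NF-kB.

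Values are FPKM, fragments per kilobase of transcript scaled to the mapped fragments of the library, as deposited. The 15 genes listed as markers of submandibular acini and ducts had a summed level of 22100 to 32700 FPKM in a library. Of these, the duct gene Ren1 was listed at 0 FPKM in both control and both 6 h libraries and at 9.09 and 8.48 FPKM at 24 h. Smgc was at 0 and 0.499 FPKM in control replicate 1 and 24 h replicate 1 against 27.6 to 541 FPKM in the other 4. Dcpp1, also of the list, was lowest in the same 2 libraries, at 3.15 and 94.0 FPKM against 2600 to 6350 FPKM elsewhere. Muc19 (below) was lowest there too, and the tissue of origin of Smgc and Dcpp1 was not tested. Genes of neighbouring tissue set several libraries apart (named here with their values in view). The sublingual mucin gene Muc19 was at 0.0178 and 2.25 FPKM in control replicate 1 and 24 h replicate 1 against 139 to 178 FPKM elsewhere, and the parotid amylase gene Amy1 at 18.4 and 24.4 FPKM in control replicate 1 and 6 h replicate 1 against 1612 to 17030 FPKM elsewhere. The epidermal keratin gene Krt10 was at 129 FPKM in 24 h replicate 2 against at most 10.7 FPKM elsewhere. The control and 6 h columns lie on steps of whole reads, which give 11830000 to 12580000 reads in a library. The 24 h columns show no steps, so their depth cannot be read, and a difference in quantification cannot be told apart from the time after irradiation wherever 24 h is compared.

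Most of the 10 genes were at the edge of detection in control glands. Only Csf1 was at or above 1 FPKM in all 6 libraries, and Cxcl2 was below 1 FPKM in all 6. Of the 10 genes, 5 and 6 were below 1 FPKM in control replicates 1 and 2, 9 and 4 in 6 h replicates 1 and 2, and 3 and 1 in 24 h replicates 1 and 2. Testing with limma was limited to genes averaging 1 FPKM or more across the 6 libraries, which left out Cxcl2 and Tnf. Of the 8 tested genes, 4 (Ccl3, Ccl4, Cxcl1 and Il1b) had a mean under 1 FPKM over the 4 control and 6 h libraries and passed only through their 24 h values, so the number of tested genes that are higher at 24 h is no support for a change of the group.

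**Figure D1:**
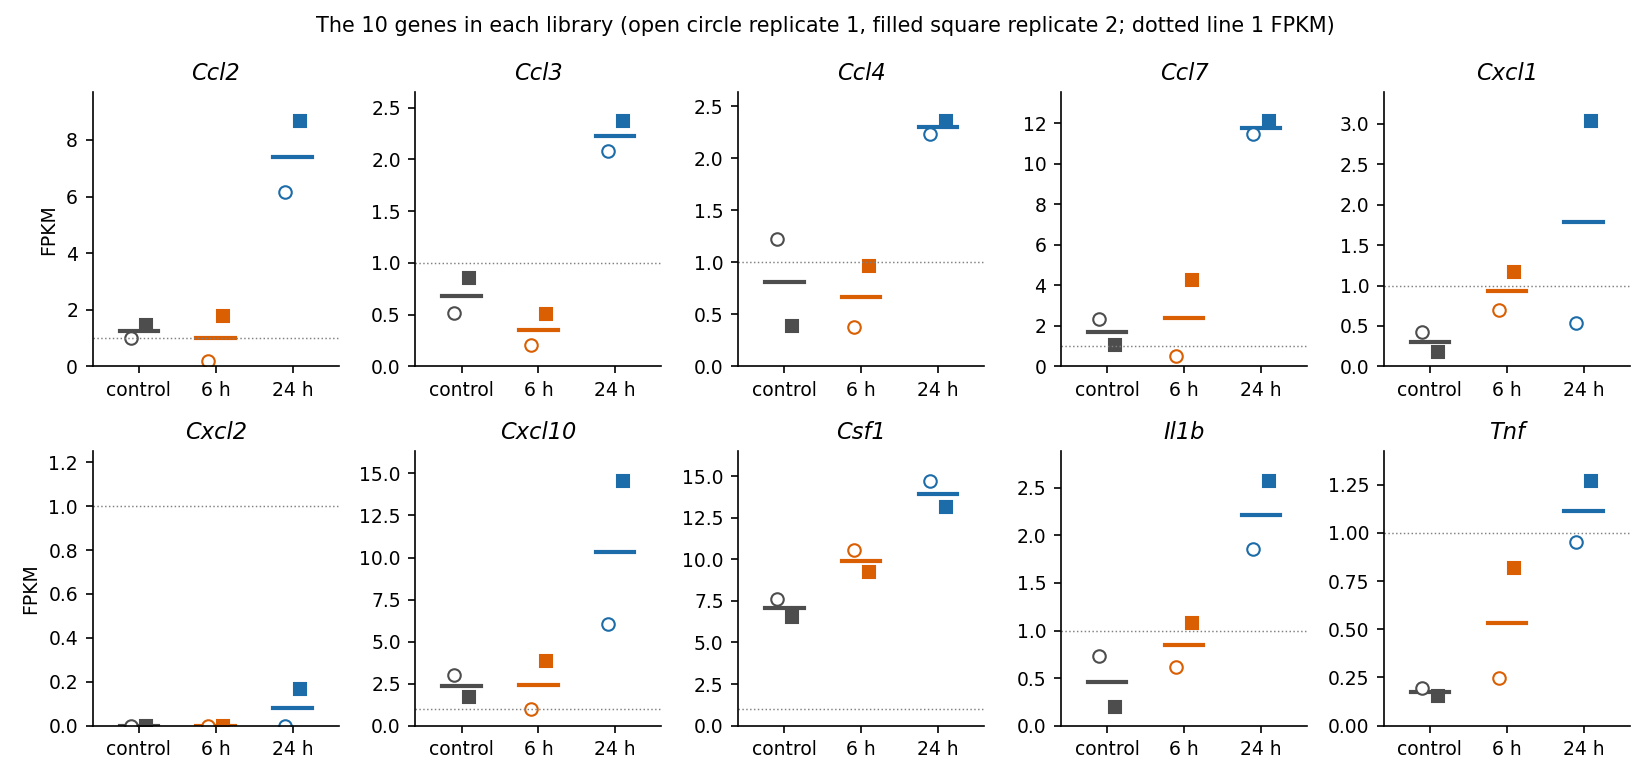
FPKM of each of the 10 genes in the 6 libraries, by group; open circles are replicate 1, filled squares replicate 2, bars the mean of the 2 libraries, and the dotted line 1 FPKM. Axes differ between panels: Csf1 lies between 6.56 and 14.7 FPKM, while Cxcl2 is listed at 0 FPKM in 5 libraries and at 0.166 FPKM in 24 h replicate 2.

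The genes lie in short clusters on the mouse genome (GENCODE M21, GRCm38, positions from 1), and all are annotated as protein coding. Ccl2 (chr11:82035571-82037453, plus strand) and Ccl7 (chr11:82045712-82047525, plus strand) are 8.3 kb apart. Ccl3 (chr11:83647844-83649355, minus strand) and Ccl4 (chr11:83662584-83664683, plus strand) are 13.2 kb apart, and the longer RefSeq model of Ccl4 (chr11:83648624-83664683) overlaps Ccl3 on the other strand. Whether the counting used strand is not stated, so reads in that overlap cannot be told apart. Cxcl1 (chr5:90891241-90893115, plus strand) and Cxcl2 (chr5:90903871-90905938, plus strand) are 10.8 kb apart, with Cxcl10 on the same chromosome (chr5:92346638-92348889, minus strand). Csf1 lies at chr3:107741048-107760469, Il1b at chr2:129364570-129371139 and Tnf at chr17:35199381-35202007, all on the minus strand.

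The 250 bases before the RefSeq start (build GRCm38.p6) were available for 7 of the 10 genes: Ccl3, Cxcl1, Cxcl2, Cxcl10, Csf1, Il1b and Tnf. Both strands were searched for the NF-kB consensus and for GAAA repeated after any 2 bases, a core of the interferon-stimulated response element. Sequences are shown for the 4 genes with an NF-kB match, in lower case on the strand of the gene, 5′ to 3′, with matches in capitals, because they set a low chemokine pair (Cxcl1 and Cxcl2, with means of 1.01 and 0.0276 FPKM over the 6 libraries) beside Cxcl10 and Csf1, which are among the most abundant of the 10.
Cxcl1 (chr5:90890995-90891244, plus strand): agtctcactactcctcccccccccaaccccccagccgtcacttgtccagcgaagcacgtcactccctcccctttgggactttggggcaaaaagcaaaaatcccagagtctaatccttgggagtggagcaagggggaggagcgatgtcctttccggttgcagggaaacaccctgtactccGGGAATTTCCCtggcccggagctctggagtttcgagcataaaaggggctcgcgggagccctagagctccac
Cxcl2 (chr5:90903649-90903898, plus strand): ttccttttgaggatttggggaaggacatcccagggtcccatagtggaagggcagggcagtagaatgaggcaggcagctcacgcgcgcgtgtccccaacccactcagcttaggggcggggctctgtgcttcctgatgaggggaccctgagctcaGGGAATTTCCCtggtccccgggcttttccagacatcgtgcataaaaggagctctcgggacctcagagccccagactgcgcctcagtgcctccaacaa
Cxcl10 (chr5:92348890-92349139, minus strand): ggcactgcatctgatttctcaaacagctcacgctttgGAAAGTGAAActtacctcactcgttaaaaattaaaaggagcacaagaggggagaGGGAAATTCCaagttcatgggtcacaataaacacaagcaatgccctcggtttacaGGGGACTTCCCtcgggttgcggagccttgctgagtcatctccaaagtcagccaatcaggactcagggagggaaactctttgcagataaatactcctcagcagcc
Csf1 (chr3:107760470-107760719, minus strand): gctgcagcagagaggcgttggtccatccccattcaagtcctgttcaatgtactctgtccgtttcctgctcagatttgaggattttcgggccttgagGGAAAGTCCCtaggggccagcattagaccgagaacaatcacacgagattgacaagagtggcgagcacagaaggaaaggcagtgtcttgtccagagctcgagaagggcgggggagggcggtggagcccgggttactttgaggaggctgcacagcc

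The letters GGGAATTTCC stood 71 to 62 bases before the start of Cxcl1 and 97 to 88 bases before that of Cxcl2, each overlapping a second match to the consensus on the other strand, and these letters were found on either strand in 28 of 32851 promoters of the same length (0.0852%). Cxcl10 held 3 matches to the consensus, 159 to 150, 104 to 95 and 103 to 94 bases before its start (the last 2 overlap), and GAAAGTGAAA at 213 to 204 bases. Csf1 held 1 match on the reverse strand, 154 to 145 bases before its start. The consensus was found in 7.25% of all promoters and the GAAA repeat in 2.98%. Ccl3, Il1b and Tnf held neither in this window, and a match or its lack is a description of letters, not of binding.

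Another feature of cytokine messages is the AU-rich element of the 3′ UTR, which in its textbook form shortens the life of a message. The nonamer TTATTTATT stood in the annotated 3′ UTR of 3 of the 10 genes, with 2 copies in Cxcl1, 4 in Cxcl2 and 5 in Tnf. Among mouse 3′ UTRs of like length (80 to 120% of that of each gene) 3.81, 4.38 and 4.38% held it, in the same order. These 3 genes had the lowest mean levels of the 10 over the 6 libraries (1.01, 0.0276 and 0.606 FPKM), with Ccl3 next at 1.09 FPKM. The same held for the control and the 24 h means but not at 6 h. There Ccl3 (0.356 FPKM), Ccl4 (0.669) and Il1b (0.85), which lack the nonamer, averaged less than Cxcl1 (0.934). Whether the nonamer bears on these levels was not tested. The pentamer ATTTA was found in all 10, from 1 copy in Ccl2 to 11 in Cxcl2, with 8 in Tnf, 7 in Cxcl1 and 5 in Ccl3. At least as many stood in 0.0421, 0.334, 0.413 and 1.16% of 3′ UTRs of like length for Cxcl2, Tnf, Cxcl1 and Ccl3. For Il1b, Ccl4, Ccl7, Cxcl10, Ccl2 and Csf1 the share was 3.44, 12.5, 19.7, 33.7, 34.9 and 49.5%, so for several genes the count was ordinary.

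In control glands the order of mean levels was Csf1, Cxcl10, Ccl7, Ccl2, Ccl4, Ccl3, Il1b, Cxcl1, Tnf and Cxcl2. Csf1, at 7.61 and 6.56 FPKM, did not overlap with Cxcl10, at 3.02 and 1.69 FPKM. From Cxcl10 down to Tnf, each gene overlapped with its neighbour in the order. Genes further apart in it did not always overlap: both Tnf values (0.196 and 0.154 FPKM) lay under both Ccl3 values (0.513 and 0.856 FPKM). Cxcl2 was listed at 0 FPKM in both control and both 6 h libraries, where 3 reads, the limit that a count of 0 allows, would be worth 0.215 to 0.229 FPKM (the two-sided 95% Poisson interval used below ends higher, at 3.69 reads). Intervals and limits on reads cover counting error only.

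The first comparison asked what changed 6 h after irradiation. None of the 8 tested genes passed in either direction, while 0.694% of 11674 genes were called higher and 0.317% lower (limma, Benjamini-Hochberg adjusted p under 0.05). The same held with median-of-ratios factors, quantile normalization or no filter, where 0.737, 0.702 and 0.29% of genes were called higher. At an unadjusted p under 0.05 there was 1 of the 8, Csf1, against 1724 of 11674 genes. The median log2 fold change was 0.01 over the 8 genes and -0.02 over all tested genes. Taken over all 10 genes, both 6 h libraries lay above both control libraries for 3 (Cxcl1, Csf1 and Tnf), against 16.3% of 18253 genes. They lay below both for 1 (Ccl3). The share of all genes in that direction was not counted, so this is no result about the 10 genes.

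Csf1 was at 7.61 and 6.56 FPKM in control and at 10.6 and 9.22 FPKM at 6 h. The groups did not overlap, but the log2 fold change, 0.43 ± 0.13 (SE), failed the test (adjusted p = 0.206). Cxcl1, the main neutrophil chemokine of rodents, was at 0.427 and 0.178 FPKM in control and at 0.695 and 1.17 FPKM at 6 h, a log2 fold change of 0.57 ± 0.44 (adjusted p = 0.624). These values rest on 5 and 2 reads in control and 8 and 14 reads at 6 h, and of the exact 95% Poisson intervals only those of control replicate 2 (0.242 to 7.22 reads) and 6 h replicate 2 (7.65 to 23.5 reads) are apart. Tnf, a cytokine made chiefly by macrophages, was at 0.196 and 0.154 FPKM in control (4 and 3 reads) and 0.249 and 0.818 FPKM at 6 h (5 and 17 reads); the 6 h libraries were higher, replicate 1 by only 1 read.

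The 2 libraries at 6 h differed from each other more than they differed from control for several of these genes. Replicate 2 lay above replicate 1 for 8 of the 10, against 55.1% of 16656 genes, and the ratio of replicate 2 to replicate 1 was 8.68 for Ccl2, 8.29 for Ccl7, 3.93 for Cxcl10, 3.28 for Tnf, 2.57 for Ccl4 and 2.41 for Ccl3. It was 0.871 for Csf1, and its median was 1.03 over the 11191 genes averaging 1 FPKM or more at 6 h. Ccl7 had 5 and 43 reads and Ccl2 had 2 and 18 reads in 6 h replicates 1 and 2, and for both the exact 95% Poisson intervals of the 2 libraries were apart (1.62 to 11.7 and 31.1 to 57.9 reads for Ccl7). Those of Cxcl10 (13 and 53 reads) were apart as well. The depth of the 2 libraries was 12130000 and 12580000 reads.

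**Figure D2:**
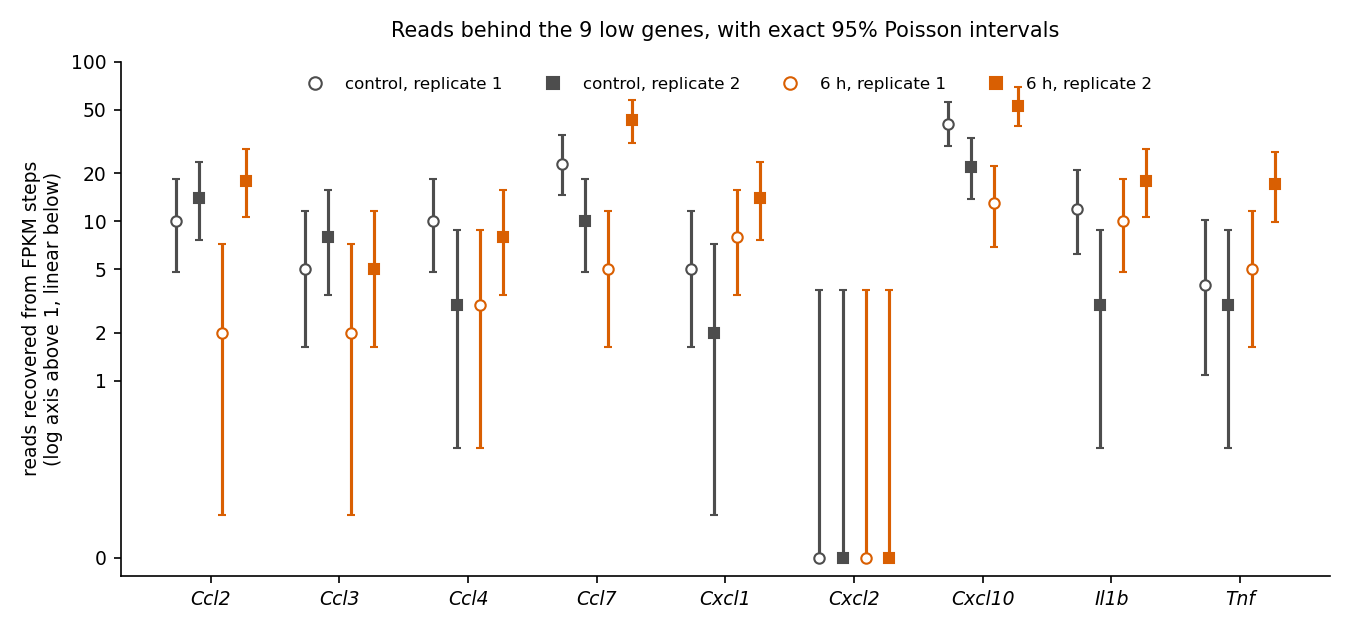
Reads behind the 9 low genes in the control and 6 h libraries, recovered from the steps of the FPKM values, with exact 95% Poisson intervals; the axis is logarithmic above 1 read and linear below. Ccl2, Ccl7 and Cxcl10 in 6 h replicate 1 (2, 5 and 13 reads) lie under their values in 6 h replicate 2 (18, 43 and 53 reads), and Cxcl2 is at 0 reads in all 4.

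The second comparison asked what differed 24 h after irradiation. Of the 8 tested genes, 5 (Ccl2, Ccl3, Ccl7, Csf1 and Il1b) were higher at 24 h and none was lower, against 21.0% of all tested genes higher and 4.3% lower. The median log2 fold change was 1.05 over the 8 genes and 0.20 over all tested genes. For 9 of the 10 genes, all but Cxcl2, both 24 h libraries lay above both controls, which held for 46.3% of 18253 genes. The median of all genes moved to -0.03 with median-of-ratios factors and to -0.04 with quantile normalization, under which 9.35 and 8.49% of genes were called higher. All 8 genes kept a positive log2 fold change under both scalings; Ccl2, Ccl3, Csf1 and Il1b passed with the factors, and Ccl2, Ccl3 and Csf1 with quantile normalization. As deposited, all genes split into 2451 higher and 502 lower, and the factors gave 1091 and 970. The count was lower in fits with fewer libraries: 3 of the 8 passed without control replicate 1, 2 without control replicate 2, and 1 without 24 h replicate 1 or without 24 h replicate 2. In these 4 fits the median log2 fold change over the 8 genes was 1.34, 0.99, 1.48 and 0.98, and with any 1 of the 6 libraries left out the number of all genes called was 1266 to 2345, against 2953. In a fit without both control replicate 1 and 24 h replicate 2, an alternative chosen after seeing the data, none of the 8 passed, and 316 of all genes did.

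Ccl2 and Ccl7 encode monocyte chemoattractants that act on the receptor Ccr2. Ccl2 was at 1.005 and 1.47 FPKM in the controls, at 0.205 and 1.78 FPKM after 6 h and at 6.17 and 8.66 FPKM after 24 h. The 24 h libraries were the highest of the 6, while 6 h and control overlapped. Ccl2 was 5.99-fold higher at 24 h by the ratio of mean FPKM, a log2 fold change of 1.90 ± 0.39 on the log2(FPKM + 1) scale (adjusted p = 0.0177). Ccl7 was at 2.33 and 1.06 FPKM in the controls, at 0.516 and 4.28 FPKM after 6 h and at 11.5 and 12.1 FPKM after 24 h. Its log2 fold change, the highest among the 8 genes, was 2.29 ± 0.56 (adjusted p = 0.0298; 6.95-fold by mean FPKM), with 24 h again apart from the overlapping control and 6 h values. The Ccl7 call was lost with either other scaling (adjusted p = 0.055 and 0.0522) and without the filter on low genes (0.0688). With a pseudocount of 0.1 neither Ccl2 (0.0657) nor Ccl7 (0.0606) passed. Leaving out control replicate 1, control replicate 2, 24 h replicate 1 or 24 h replicate 2 gave adjusted p-values of 0.0812, 0.0521, 0.0871 and 0.125 for Ccl2 and of 0.0668, 0.119, 0.161 and 0.159 for Ccl7.

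Ccl3 and Ccl4 encode the macrophage inflammatory proteins, and Ccl3 binds the receptor Ccr1. Ccl3 was at 0.513 and 0.856 FPKM in the controls, at 0.209 and 0.503 FPKM after 6 h and at 2.08 and 2.37 FPKM after 24 h. The 24 h libraries stood apart and the 6 h libraries were the lowest, and the log2 fold change at 24 h was 0.94 ± 0.20 (adjusted p = 0.0197; 3.25-fold by mean FPKM). Ccl4 was at 1.23 and 0.384 FPKM in the controls, at 0.375 and 0.964 FPKM after 6 h and at 2.24 and 2.35 FPKM after 24 h. Its 24 h libraries were also above the other 4, but the 2 controls were 10 and 3 reads, and the log2 fold change, 0.91 ± 0.28, missed the threshold (adjusted p = 0.0629); without control replicate 1 it passed (0.0409). The Ccl3 call was lost without control replicate 1 (adjusted p = 0.0758) and without 24 h replicate 1 or 2 (0.06 and 0.0753).

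Among the CXC chemokines none passed at 24 h. Cxcl10 was at 3.02 and 1.69 FPKM in the controls, at 0.974 and 3.83 FPKM after 6 h and at 6.07 and 14.6 FPKM after 24 h. Both 24 h libraries were above the other 4 but differed from each other, and the log2 fold change of 1.67 ± 0.53 had an adjusted p of 0.0629 (4.38-fold by mean FPKM). Cxcl1 was at 0.532 and 3.03 FPKM at 24 h, so that only replicate 2 lay above the 6 h libraries. Its log2 fold change was 0.94 ± 0.44 (adjusted p = 0.172), and 0.24 without 24 h replicate 2 against 1.64 without 24 h replicate 1, where it passed (adjusted p = 0.0233). Cxcl2 was listed at 0 FPKM in 24 h replicate 1 and at 0.166 FPKM in replicate 2, under the 3-read limit of the control and 6 h libraries, and no fold is given.

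Csf1 was at 14.7 and 13.1 FPKM at 24 h against 7.61 and 6.56 FPKM in control, 1.97-fold by mean FPKM. The 6 values fell into 3 groups that did not overlap, with 6 h between the other two. The log2 fold change of 0.89 ± 0.13 had the lowest adjusted p of the 8 genes (0.00467), and the call was lost without 24 h replicate 1 (0.0535). Il1b, whose product is cut by caspase-1 to its active form, was at 0.733 and 0.191 FPKM in the controls, at 0.621 and 1.08 FPKM after 6 h and at 1.86 and 2.58 FPKM after 24 h. The 24 h libraries were the highest, and the log2 fold change was 1.15 ± 0.25 (adjusted p = 0.0221; 4.80-fold by mean FPKM). The Il1b call was lost with quantile normalization (adjusted p = 0.0595) and without control replicate 2 and 24 h replicates 1 and 2 (0.0745, 0.0691 and 0.112). Tnf was at 0.951 and 1.27 FPKM at 24 h, above all 4 other libraries, and was under the filter. In the fit without the filter, where 12.3% of genes were called higher, its log2 fold change was 0.84 ± 0.20 (adjusted p = 0.0499).

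At 24 h the order of mean levels was Csf1 (13.9 FPKM), Ccl7 (11.8), Cxcl10 (10.3), Ccl2 (7.42), Ccl4 (2.29), Ccl3 (2.22), Il1b (2.22), Cxcl1 (1.78), Tnf (1.11) and Cxcl2 (0.0827). The libraries of Csf1 and Ccl7 did not overlap, nor did those of Ccl2 and Ccl4 or of Tnf and Cxcl2. All other neighbours in this order overlapped. Replicate 2 lay above replicate 1 for 9 of the 10 genes at 24 h, with Csf1 the exception. The share over all genes was not counted, so this is no result about the 10 genes. The FPKM of all genes summed to 677320 and 1203218 in 24 h replicates 1 and 2, and their median-of-ratios factors were 1.156 and 1.14.

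**Figure D3:**
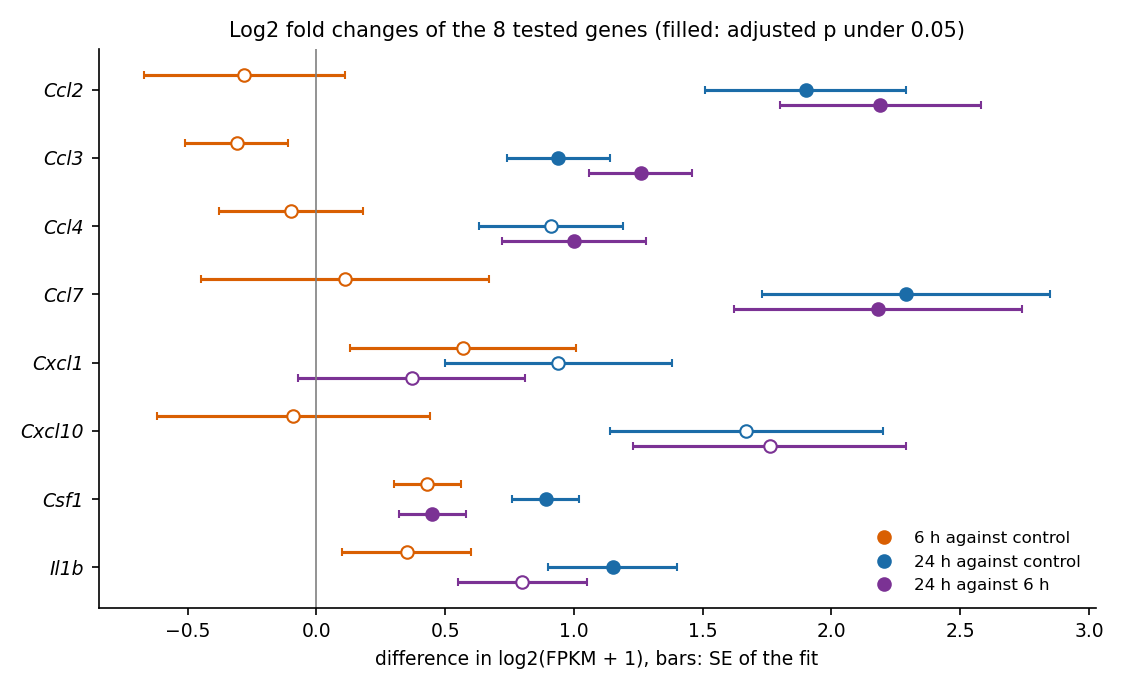
Log2 fold changes of the 8 tested genes on the log2(FPKM + 1) scale for each group pair (6 h and 24 h against control, and 24 h against 6 h); bars are the SE of the fit and filled points have an adjusted p under 0.05. At 24 h all 8 lie above 0, from 0.89 (Csf1) to 2.29 (Ccl7), while at 6 h no point is filled.

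The third comparison set 24 h against 6 h, and shares its libraries with the other comparisons. Of the 8 genes, 5 were higher at 24 h (Ccl2, Ccl3, Ccl4, Ccl7 and Csf1) and none was lower, against 23.4% of all tested genes higher and 4.31% lower. Both 24 h libraries lay above both 6 h libraries for 8 of the 10 genes, all but Cxcl1 and Cxcl2, and for 49.0% of 18253 genes. Log2 fold changes were 2.19 ± 0.39 for Ccl2 (adjusted p = 0.0099), 2.18 ± 0.56 for Ccl7 (0.0326), 1.26 ± 0.20 for Ccl3 (0.00669), 1.0 ± 0.28 for Ccl4 (0.0444) and 0.45 ± 0.13 for Csf1 (0.0409). Il1b (0.80 ± 0.25, adjusted p = 0.0615), Cxcl10 (1.76 ± 0.53, 0.0511) and Cxcl1 (0.37 ± 0.44, 0.564) missed the threshold. With median-of-ratios factors (10.7% of genes called higher) or quantile normalization (9.85%) Ccl2 and Ccl3 passed alone of the 8, as they did without the filter (14.8%), while Csf1 moved to 0.17 and 0.22 (adjusted p = 0.382 and 0.288). Without 24 h replicate 1 or without 24 h replicate 2, Ccl3 passed alone.

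None of the tested receptors of these ligands passed at 6 h. Ccr2, the monocyte receptor of Ccl2 and Ccl7, was at 4.92 and 5.40 FPKM in the controls, at 1.93 and 2.503 FPKM after 6 h and at 7.81 and 5.17 FPKM after 24 h. Its 6 h libraries were the lowest, and the log2 fold change, -0.94 ± 0.20, missed the threshold (adjusted p = 0.114), and at 24 h it was at 0.26 ± 0.20 against control (0.369) and 1.20 ± 0.20 against 6 h (0.00719). Ccr1 (0.80 ± 0.22, adjusted p = 0.0414) and the Cxcl10 receptor gene Cxcr3 (0.69 ± 0.18, 0.0361) also passed at 24 h against control, and neither did with the other 2 scalings (0.0913 and 0.159 for Ccr1, 0.0982 and 0.163 for Cxcr3). Cxcr2, the receptor of Cxcl1 and Cxcl2, was at 0.56 FPKM in 24 h replicate 2 and at 0 to 0.063 FPKM in the other 5 libraries.

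Csf1r, the receptor of Csf1 and a macrophage marker, was at 10.7 and 11.1 FPKM in the controls, at 7.87 and 7.84 FPKM after 6 h and at 15.5 and 15.0 FPKM after 24 h. Receptor and ligand lay on opposite sides of control at 6 h, neither difference passing (adjusted p = 0.127 for Csf1r), and on the same side at 24 h. Csf1r rose by 0.45 ± 0.09 at 24 h (adjusted p = 0.0174), with 0.20 and an adjusted p of 0.192 under median-of-ratios factors. Il34, the other ligand of Csf1r, was at 8.63 and 10.1 FPKM in the controls, at 21.3 and 14.2 FPKM after 6 h and at 25.3 and 15.9 FPKM after 24 h, with log2 fold changes of 0.83 ± 0.26 (adjusted p = 0.233) and 1.03 ± 0.26 (0.0341), the latter lost with median-of-ratios factors (0.0999). The Tnf receptor gene Tnfrsf1b, found mainly on leukocytes and endothelium, rose by 1.28 ± 0.20 at 24 h (adjusted p = 0.00686), from 0.775 and 1.29 FPKM to 3.29 and 4.56 FPKM. The widely expressed Tnfrsf1a was at 0.31 ± 0.11 (0.087). Of the receptors of interleukin 1, Il1rap, the accessory chain, rose by 0.67 ± 0.16 (0.0286; 0.123 with median-of-ratios factors), and Il1r1 was at 0.35 ± 0.12 (0.0816). When single libraries were dropped, Tnfrsf1b passed in all 6 fits. Csf1r failed without control replicate 1 and without either 24 h replicate (0.0662, 0.0983 and 0.0787), and Il1rap in the same 3 fits (0.109, 0.111 and 0.152). Ccr1 passed only without 24 h replicate 2, Cxcr3 only without 6 h replicate 1, and Il34 only without either 6 h replicate. Ccr2 against 6 h failed without 6 h replicate 1 (0.0578). Il1rn, the natural antagonist, was under the filter, at 0.0903 to 0.177 FPKM in the control and 6 h libraries and at 0.605 and 2.01 FPKM at 24 h.

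Other genes of these families were read from lists chosen with earlier results of these data known. Of 31 other chemokines, 21 were tested; none passed at 6 h (median log2 fold change -0.27), and 13 rose and none fell at 24 h (median 1.19), against 21.0% of all tested genes higher, or 9.35% with median-of-ratios factors and 8.49% with quantile normalization. These shares are the background at 24 h for each list that follows. At 6 h the background is 0.694% of all tested genes higher and 0.317% lower. Of the 13, Cxcl11 averaged under 1 FPKM over control and 6 h, so it was tested only because of its 24 h values. Ccl8, a further ligand of monocyte receptors, was at 18.7 and 16.5 FPKM in the controls, at 8.23 and 13.5 FPKM after 6 h and at 166 and 236 FPKM after 24 h, a log2 fold change of 3.42 ± 0.25 (adjusted p = 0.000435). Cxcl12, a chemokine of stromal cells, was at 2.18 and 2.63 FPKM in the controls, at 1.77 and 1.75 FPKM after 6 h and at 21.1 and 26.4 FPKM after 24 h (2.86 ± 0.14, adjusted p = 9.39e-05). Cxcl9, which shares the receptor of Cxcl10, rose by 2.09 ± 0.17 (0.000605). Cxcl13, which attracts B cells, was at 7.14 and 85.3 FPKM in the 24 h replicates (3.54 ± 0.97, 0.0433), and the call was lost with median-of-ratios factors (0.066). With those factors 8 of the 21 rose and none fell, with control replicate 1 left out 9 rose and 1 fell, and with 24 h replicate 1 left out 8 rose. Ccl8, Cxcl12 and Cxcl9 passed with any 1 of the 6 libraries left out, and Cxcl13 did not without either control (adjusted p = 0.143 and 0.115) or either 6 h library (0.0865 and 0.0859).

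Of 28 other cytokines, 11 were tested, none passed at 6 h, and 6 rose at 24 h (median -0.15 and 0.85; 3 rose with either other scaling). Among them were Il18 (1.41 ± 0.33, adjusted p = 0.0273), its inhibitor Il18bp (1.81 ± 0.22, 0.0026) and the alarm cytokine Il33 (1.38 ± 0.23, 0.00888). Il18 failed with median-of-ratios factors (0.0553) or without control replicate 1, control replicate 2 or 24 h replicate 2 (0.0544, 0.107 and 0.129). The count of 6 fell to 3 without control replicate 1 and without 24 h replicate 2. Il6, Il17a and Ifnb1 were listed at 0 in all 6 libraries. Of 19 chemokine receptors, 10 were tested; 1 fell at 6 h, the scavenging receptor gene Ackr3 (log2 fold change -0.92 ± 0.13, adjusted p = 0.0358), and 4 rose at 24 h (2 with either other scaling), among them Cxcr6, a T cell receptor for Cxcl16 (1.06 ± 0.16, 0.00645). Of the 10, 5 averaged under 1 FPKM over control and 6 h and were tested only because of their 24 h values, among them 3 of the 4 that rose (Ccr1, Cxcr3 and Cxcr6), so the count is no support for a change of the list. The Ackr3 call was lost with any 1 of the 6 libraries left out (adjusted p = 0.0711 to 0.318). Of 16 cytokine receptors, 11 were tested, none passed at 6 h, and 4 rose at 24 h, or 1 with either other scaling, which is a share near that of all genes. Of the cytokine receptors 1, 2 and 1 rose when control replicate 1, 24 h replicate 1 or 24 h replicate 2 was dropped, and 2 chemokine receptors did without either control or without 6 h replicate 2.

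Of 28 genes that process these cytokines or carry their signals, 26 were tested; 2 rose at 6 h and 12 at 24 h (median 0.15 and 0.49), and with median-of-ratios factors 6 rose and 1 fell at 24 h. The 2 at 6 h were Relb and Nfkb2, subunits of noncanonical NF-kB. Relb was at 2.62 and 2.46 FPKM in the controls, at 19.9 and 11.7 FPKM after 6 h and at 5.23 and 7.02 FPKM after 24 h. Any link between Relb and the 10 genes was not tested. At 24 h the sensor protease gene Casp1 (1.44 ± 0.15, adjusted p = 0.00139) and the interferon response gene Irf1 (1.31 ± 0.16, 0.00272) rose. The count of 12 fell to 6 without either control or without 24 h replicate 1, and to 4 without 24 h replicate 2. Relb at 6 h did not pass with any 1 of the 6 libraries left out (adjusted p = 0.0519 to 0.127), and Nfkb2 (log2 fold change 1.09 ± 0.10 at 6 h, adjusted p = 0.00763) passed only without control replicate 2.

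**Figure D4:**
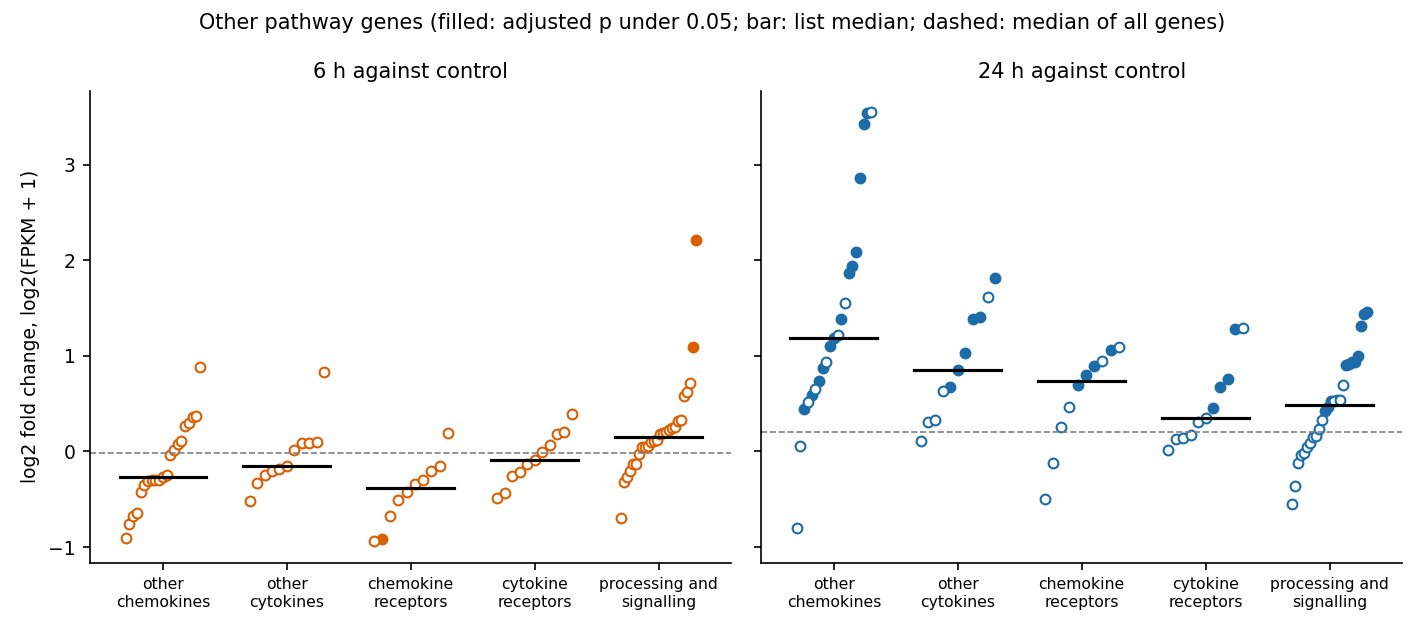
Log2 fold changes on the log2(FPKM + 1) scale of the tested genes of 5 lists at 6 h and at 24 h against control; filled points have an adjusted p under 0.05, bars are list medians and the dashed line is the median of all tested genes (-0.02 and 0.20). At 24 h the median of the 21 other chemokines is 1.19, and at 6 h it is -0.27.

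The sums of macrophage markers and of T and NK cell markers were, like that of the 10 genes, highest in the 24 h libraries; at 6 h both lay below both controls, where the sum of the 10 genes overlapped with control. In bulk RNA, more cells of a type and more RNA in each cell cannot be told apart. The summed level of the 10 genes was 17.1 and 12.5 FPKM in the controls, was 14.4 and 23.6 FPKM after 6 h and was 46.1 and 60.2 FPKM after 24 h. The sum of 16 macrophage and monocyte markers was 340 and 356 FPKM in the controls, 253 and 318 FPKM after 6 h and 891 and 1090 FPKM after 24 h, and 11 of the 16 rose at 24 h (6 with either other scaling, 7 without control replicate 1, and 5 and 6 without 24 h replicates 1 and 2). For 13 T and NK cell markers it was 18.3 to 20.6 FPKM in control, 8.83 to 9.07 FPKM at 6 h, and 41.9 to 53.5 FPKM at 24 h, with 4 of 9 tested higher at 24 h (2 without 24 h replicate 2); 2 of these 4, Cd4 and Lck, were tested only because of their 24 h values. The 11 neutrophil markers summed to 0.666 and 2.85 FPKM in the controls, 2.14 and 8.76 FPKM after 6 h and 6.17 and 18.4 FPKM after 24 h. Of these, Ngp was at 0 in all 6 libraries, Mpo, Elane, Cxcr2, Camp and Mmp8 were below 1 FPKM in all 6, and neither of the 2 that were tested passed. In each group the neutrophil sum was higher in replicate 2. The 16 macrophage and monocyte markers did not all follow their sum. At 6 h Cd14 was called higher (16.0 and 12.5 FPKM in the controls, 31.5 and 27.0 FPKM after 6 h). Mrc1 was called lower (6.37 and 6.77 against 3.66 and 3.35 FPKM), and no other of the 16 was called. Neither call was kept without the filter, without the variance trend or in a fit of the 2 groups alone. Cd163 was at 2.51 and 3.97 FPKM in the controls and at 3.02 and 1.32 FPKM after 24 h.

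Other sums also differed between libraries: 4 skin markers were at 12.6 to 17.2 FPKM in control and 6 h glands and at 45.2 and 237 FPKM at 24 h, with all 4 called higher at 24 h, of which 2, Krt1 and Lor, were tested only because of their 24 h values. The 9 fibroblast markers were at 268 and 325 FPKM in the controls, at 208 and 229 FPKM after 6 h and at 419 and 346 FPKM after 24 h, and 12 endothelial markers at 20.1 to 32.3 FPKM in control and 6 h glands and at 33.1 and 51.1 FPKM at 24 h. Markers of B and plasma cells (77.5 to 308 FPKM over the 6 libraries), mast cells (4.14 to 37.9), adipocytes (30.9 to 565) and the list for neighbouring glands (47400 to 95100) varied within groups. The last sum is no measure of neighbouring tissue. In control replicate 1 it was 47400 FPKM with Muc19 at 0.0178 and Amy1 at 18.4 FPKM, so other genes of the list carried it. The part of any of these cells or tissues in the results for the 10 genes was not tested.

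**Figure D5:**
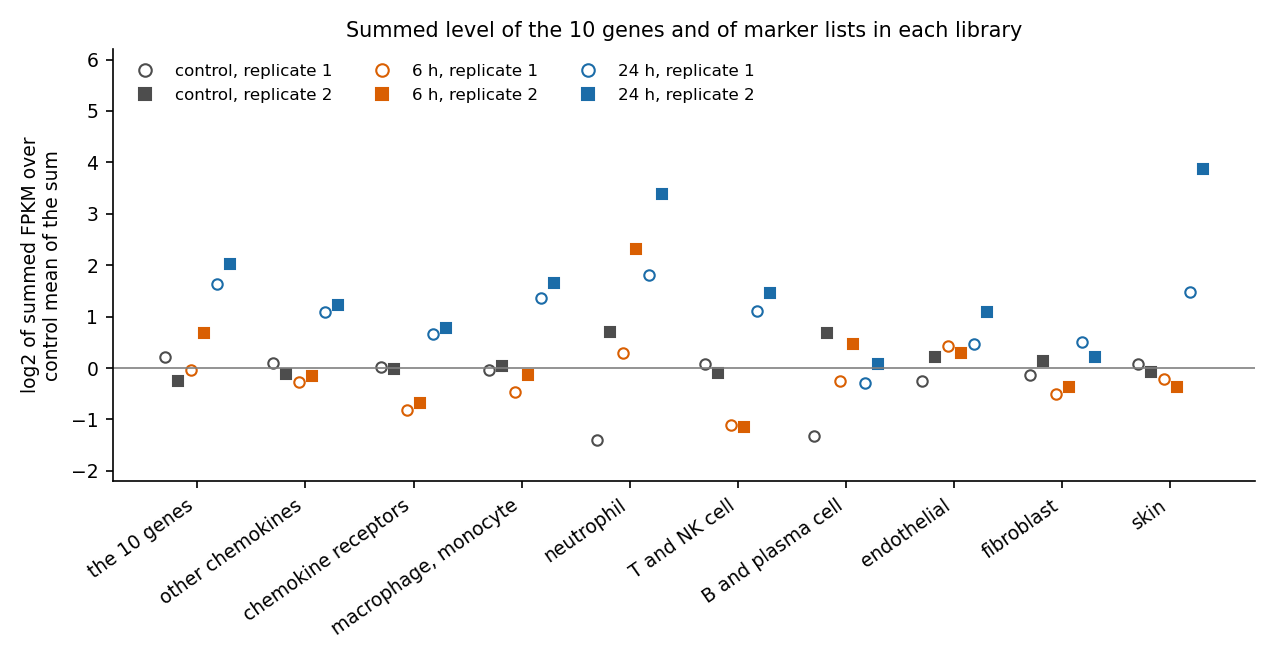
Summed FPKM of the 10 genes, of 2 other ligand and receptor lists and of 7 marker lists in each library, as log2 of the ratio to the control mean of that sum; open circles are replicate 1 and filled squares replicate 2. The 10 genes and the macrophage, T and NK cell markers are highest in the 2 libraries at 24 h, and the skin sum reaches 237 FPKM in 24 h replicate 2.

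The pattern of each tested gene was compared with that of all other tested genes by Pearson correlation of log2(FPKM + 1) over the 6 libraries, given as a description over libraries that share their groups. The 8 genes correlated with each other at 0.47 (Ccl3 and Cxcl1) to 0.97 (Ccl2 and Ccl3). The genes most like Ccl2 were Zfp942 (0.9988) and Ly9 (0.9967), those most like Ccl3 were Cst3 (0.9996) and Pirb (0.9984), and those most like Csf1 were Mga (0.9995) and Trim32 (0.9964). Ccl7 was closest to Rwdd4a (0.9981) and Commd2 (0.998), Ccl4 to Ythdc2 (0.9958) and Gabarapl2 (0.9941), and Il1b to genes that include Map2k3 (0.9897). Cxcl10 was closest to Twf1 (0.995) and Man2a1 (0.9931), and Cxcl1 to Cd2bp2 (0.9756) and Tpm4 (0.9718).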

How the data were processed

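The deposited table holds FPKM values made by the authors, with a column for each library; reads were processed with TopHat2 2.1.0 and Cufflinks 2.2.1 against mm10, per the submitters' processing notes. Of 24421 table entries, 27 with a date number in place of a symbol were not used. For control and 6 h, 4157 of 4173 genes under 1 FPKM lay on steps of whole reads (relative tolerance 5e-06), which gave 12340000, 11830000, 12130000 and 12580000 reads; the 24 h depth is unknown, so the precision of those values is not given. Low values rest on few reads.

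Values were taken as log2(FPKM + 1), which understates changes of low genes. The 11674 genes averaging 1 FPKM or more were fitted with limma 3.58.1 (R 4.3.3), with a mean for each of the 3 groups, a variance trend and 3 residual degrees of freedom. Tests were two-sided, adjusted by Benjamini-Hochberg over all tested genes, with a threshold of 0.05. Values after ± are the SE of the fit. The fit was checked on simulated data. Alternatives were pseudocounts of 0.1 and 0.5, no filter (18253 genes), median-of-ratios factors, quantile normalization, 2 groups only, a replicate block, no trend and each library left out.

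The 10 genes, the lists and the rule for named genes were chosen with earlier results of these data known. The rule named the 10 genes, their receptors, Il1rn and Il34, the up to 4 called genes of each list with the largest change against control, and the 2 genes most like each tested gene; some of these are not reported here, and genes named outside it are listed at 0 or set a range. Gene positions, exons and 3′ UTRs came from GENCODE M21 and promoters from RefSeq (GRCm38.p6), matched by symbol.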

Additional observations from a re-analysis of the deposited data

Results flagged for a closer look

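For 5 of the 8 tested genes the difference from control was larger at 24 h than at 6 h by the test of that difference, which is the comparison of 24 h with 6 h. Of all tested genes, 23.4% were called higher in that comparison. Ccl3 and Ccl4 were tested only because of their 24 h values, so the count is no support for a change of the group. With median-of-ratios factors or quantile normalization, Ccl2 and Ccl3 passed alone. The log2 differences between the effects were 2.19 for Ccl2, 1.26 for Ccl3, 1.0 for Ccl4, 2.18 for Ccl7 and 0.45 for Csf1. In these values the time cannot be told apart from the quantification of the 24 h columns.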

How the results depend on the processing

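Across the alternatives, 282 results for the 8 genes kept their direction and side of the threshold, 58 no longer passed, 8 newly passed and 12 turned direction. Cause was not tested for any of them, beyond the fewer libraries or other gene set of a fit. At 6 h, 118 genes were called as reported, 68 without the filter, 31 in a fit of the 2 groups alone, 7 to 59 with each library left out in turn, and 0 (1275 at an unadjusted p under 0.05) in a fit without both control replicate 1 and 24 h replicate 2, an alternative chosen after seeing the data. None of the 8 genes was called at 6 h in any of these fits. At 24 h against control, 2953 genes were called as reported, 1939 with quantile normalization, 1266 to 2345 with each library left out, and 316 with both left out. For 24 h against 6 h the counts were 3237, 1415 to 3259 with each left out, and 806 with both left out. Of the 8 genes, 5 were called at 24 h against control, 3 with a pseudocount of 0.1, 3 with quantile normalization, 1 to 5 with each library left out and 0 with both left out. Against 6 h, 5 were called, 3 with a pseudocount of 0.1, 2 without the filter, 2 with median-of-ratios factors, 2 with quantile normalization, 1 to 6 with each left out and 0 with both left out. With both left out, 4 of the other chemokines and 0 of the other cytokines were called higher at 24 h against control.

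Values that turned direction at 6 h were Ccl2 at 0.32 without 6 h replicate 1 (range with each library left out -0.89 to 0.32), Ccl4 at 0.25 without control replicate 1 (0.25 with both left out) and 0.16 without 6 h replicate 1 (range -0.44 to 0.25), Ccl7 at -0.03 with a pseudocount of 0.1, -0.24 without control replicate 2 and -0.79 without 6 h replicate 2 (range -0.79 to 1.01), and Cxcl10 at 0.20 without control replicate 1 (0.20 with both left out) and 0.55 without 6 h replicate 1 (range -0.74 to 0.55). For 24 h against 6 h, Cxcl1 was at -0.33 without 24 h replicate 2 and with both left out (range -0.33 to 1.07).

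The labels number the replicates alike in each group. Deviations of same-numbered libraries correlated at 0.466, 0.311 and 0.167 between groups, but nothing in the labels says that a number marks a shared animal or day. With the replicate block, 6 of the 8 genes were called at 24 h against control, Cxcl10 now among them (adjusted p = 0.046), and 5 at 24 h against 6 h, with Cxcl10 (0.0373) and without Ccl4 (0.0568). With the block, 2486 of 11674 genes were called higher at 24 h against control. Both tested neutrophil markers were among them (0 of 2 without the block). Of these, S100a8 was tested only because of its 24 h values, so the count is no support for a change of the list. The calls of Cxcr3 at 24 h (adjusted p = 0.0507) and Ackr3 at 6 h (0.0564) were lost with the block. Where a gene rests on under 10 reads in a library, as Ccl3, Cxcl1 and Tnf do in several, differences under a few reads were not detectable at this depth.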
